A study of Sus scrofa with 9 samples.

Results

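The PFKFB genes encode the bifunctional 6-phosphofructo-2-kinase/fructose-2,6-bisphosphatase enzymes. The family was taken by gene symbol from the deposited count table, which holds PFKFB1, PFKFB2, PFKFB3 and PFKFB4, so 4 of its 29837 symbols. The symbols were listed by family name, but the family itself was chosen by measured values: the MIDY and WT counts of its genes, among them the low PFKFB3 of MIDY liver, were known when it was proposed. The difference of these 4 genes between the groups is therefore described below and not tested, and nothing is read from how many of them passed a threshold.

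Liver RNA was sequenced from 9 female pigs, each 2 years old. The 4 MIDY pigs carry a transgene for insulin with the C94Y substitution (MIDY stands for diabetes of youth caused by a mutant INS gene), and the 5 wild type (WT) pigs do not. Per the labels, diabetic animals were given short and long acting insulin by day, so the transgene, the diabetes and the insulin treatment cannot be told apart. The sources used here do not give the promoter of the transgene or the number of founder animals. Each library came from ribosomally depleted total RNA and held 14115415 to 19533463 counts. The labels give each library a number of its own but no litter, pen or sampling day, and p-values measure only the spread between these 9 samples. The summed level of 8 hepatocyte markers, ALB and APOB among them, was 151000 to 181480 counts per 1000000 (CPM, with library sizes scaled by TMM) in MIDY and 121828 to 181095 CPM in WT, and all 8 passed the filter on low counts. ALB alone held a mean of 106557 CPM of a sum of 156468 CPM in WT and 117614 CPM of 167485 CPM in MIDY. CPS1 was higher in MIDY without overlap, at 2510 to 3643 CPM against 1492 to 2415 CPM in WT. So was APOB, at 14839 to 20102 CPM against 13743 to 14216 CPM. Of the 8 markers, 5 had a fitted log2 fold change above 0 and 3 below 0. At an adjusted p below 0.05 edgeR and limma voom called 0 and DESeq2 called 1 higher. INS had 5 counts over all 9 libraries, so its level in liver is no check on the genotype labels.

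Each PFKFB protein joins a kinase domain that makes fructose 2,6-bisphosphate to a phosphatase domain that removes it. That metabolite activates phosphofructokinase, the committing enzyme of glycolysis, and inhibits fructose-1,6-bisphosphatase, its counterpart in gluconeogenesis. PFKFB1 encodes the classical liver enzyme, which glucagon switches towards its phosphatase activity through phosphorylation by protein kinase A, while insulin favours the kinase activity. PFKFB2 is known as the heart form, PFKFB3 as an inducible form with a strong excess of kinase over phosphatase activity, and PFKFB4 as a form first found in testis that responds to low oxygen.

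PFKFB1, the liver form, lies on chromosome X (47771751 to 47859079 on Sscrofa11.1, RefSeq gene 100233197). Its level was 66.4, 48.9, 63.5, 52.8 and 56.5 CPM in WT replicates 1 to 5. In MIDY replicates 1 to 4 it was 32.3, 43.6, 46.6 and 54.0 CPM. Of the MIDY libraries 3 lay below every WT library and the other one lay inside the WT range, so the groups overlapped. The means were 57.6 ± 7.28 CPM in WT (SD, n = 5) and 44.1 ± 9.01 CPM in MIDY (SD, n = 4), a log2 fold change of -0.38 ± 0.15 (SE). Counting error is a small part of that spread: the coefficient of variation (CV) was 12.6% in WT and 20.4% in MIDY, where counts of this size alone would give 3.26% and 3.61%.

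PFKFB3, the inducible form, lies on chromosome 10 (64776315 to 64859118, RefSeq gene 100516289). WT replicates 1 to 5 had 107, 107, 132, 78 and 123 reads of it, which is 7.44, 5.35, 9.11, 4.92 and 6.95 CPM. MIDY replicates 1 to 4 had 33, 36, 47 and 59 reads, or 2.06, 2.50, 2.48 and 3.09 CPM. All 4 MIDY libraries lay below all 5 WT libraries, with 1.82 CPM between the highest MIDY and the lowest WT library. Their 95% exact Poisson intervals, which cover counting error only, came close and overlapped slightly, at 2.35 to 3.99 CPM for MIDY replicate 4 and 3.89 to 6.13 CPM for WT replicate 4. The mean was 6.75 ± 1.69 CPM in WT (SD, n = 5) and 2.53 ± 0.43 CPM in MIDY (SD, n = 4), so WT was 2.67-fold higher, and the fitted log2 fold change was -1.41 ± 0.22 (SE). The MIDY libraries varied among themselves about as much as counting alone would make them (CV 16.8% against 15.1%), whereas the WT libraries varied more (25% against 9.56%).

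PFKFB2, the heart form, lies on chromosome 9 (67681786 to 67716921, RefSeq gene 100523270). It had 3.27, 4.60, 4.49, 4.22 and 6.04 CPM in WT replicates 1 to 5 and 2.99, 4.30, 4.32 and 3.83 CPM in MIDY replicates 1 to 4. Of the MIDY libraries 3 lay within the WT range and MIDY replicate 1 lay just under it. The means were 4.52 ± 0.998 CPM (SD, n = 5) and 3.86 ± 0.62 CPM (SD, n = 4), a log2 fold change of -0.23 ± 0.20 (SE). The 2 ends of PFKFB2 overlap other gene models, by 104 bases with YOD1 and by 717 bases with C4BPB, a complement inhibitor subunit with 79.5 ± 4.99 CPM in WT (SD, n = 5). The sources used here do not state the strand setting of the counting, so reads from these ends cannot be told apart and the level of PFKFB2 is uncertain.

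PFKFB4 was the most thinly sampled of the family, with 207 reads over all 9 libraries. It lies on chromosome 13 (31212553 to 31259785, RefSeq gene 100158056). It had 1.53, 2.10, 0.552, 0.883 and 1.41 CPM in WT replicates 1 to 5 and 1.56, 1.39, 0.790 and 1.89 CPM in MIDY replicates 1 to 4. All 4 MIDY libraries lay inside the WT range. The means were 1.29 ± 0.60 CPM (SD, n = 5) and 1.41 ± 0.46 CPM (SD, n = 4), with a log2 fold change of 0.10 ± 0.39 (SE). The lowest library, WT replicate 3, rests on 8 reads (95% exact Poisson interval 3.5 to 15.8), and the difference in PFKFB4 is smaller than its SE. The CV was 46.3% in WT and 32.7% in MIDY, where counting alone would give 21.2% and 20.4%, so the libraries also differed beyond counting error.

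**Figure D1:**
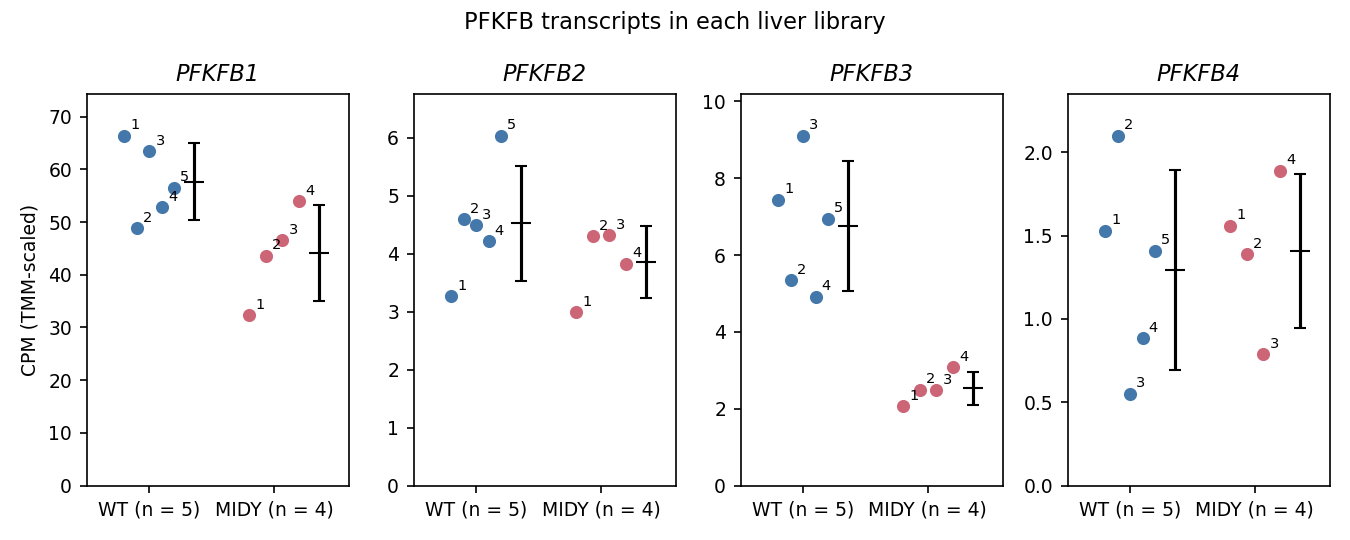
Level of each PFKFB transcript in TMM-scaled CPM (vertical axis, its own scale in each panel, from 0), 1 point per library with its replicate number; the bar beside the points is the mean ± SD (WT n = 5, MIDY n = 4). PFKFB3 of the 4 MIDY libraries (2.06 to 3.09 CPM) sits below that of the 5 WT libraries (4.92 to 9.11 CPM), while the groups overlap for PFKFB1, PFKFB2 and PFKFB4.

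In the fit across all 14100 genes tested, all 4 PFKFB genes passed the filter on low counts, and 1 of the 4, PFKFB3, was called lower in MIDY at edgeR's adjusted p threshold of 0.05. Of all genes tested 0.355% were called lower, 0.816% higher and 1.17% in either direction, and at an unadjusted p below 0.05 the shares were 8.0% lower and 8.15% higher. On the same 14100 genes DESeq2 called 284 lower and 358 higher, and limma voom 81 lower and 153 higher. PFKFB3 was also the only member whose groups did not overlap, as was the case, with MIDY lower, for 2.63% of all genes tested, against 3.72% with MIDY higher and 6.35% in all. The median log2 fold change was -0.31 over the 4 members and -0.005 over all genes. The low PFKFB3 was known when the family was chosen, so its call, its lack of overlap and this median are a description and not a test. The fold changes of PFKFB1, PFKFB2 and PFKFB3 stayed below 0 in all 18 alternative fits, with a range of -1.53 to -1.28 for PFKFB3, -0.50 to -0.26 for PFKFB1 and -0.36 to -0.10 for PFKFB2. That of PFKFB4 ran from -0.09 to 0.54 and changed sign with single libraries. It was -0.09 when MIDY replicate 4 was left out, -0.08 when this was done for WT replicate 3 and -0.01 for WT replicate 4, and -0.04 with limma voom. The highest value, 0.54, came from leaving out WT replicates 1 and 2 together.

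**Figure D2:**
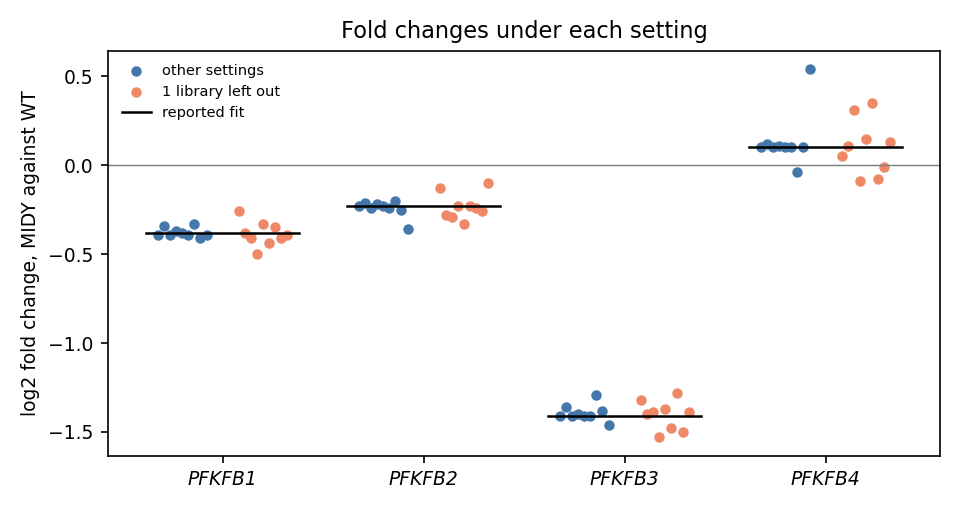
Fitted log2 fold change of MIDY against WT (vertical axis) for each PFKFB gene: the black line is the reported fit, orange points are the 9 fits that each leave out 1 library and blue points the 9 other alternatives. PFKFB3 stays between -1.53 and -1.28, whereas PFKFB4 lies on both sides of 0.

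Within a library, the ratio of reads of 2 genes does not depend on how libraries are scaled, and gene length cancels when that ratio is compared between libraries. For every 100 reads of PFKFB1 there were 11.2, 10.9, 14.3, 9.32 and 12.3 reads of PFKFB3 in WT replicates 1 to 5, and 6.37, 5.73, 5.31 and 5.73 in MIDY replicates 1 to 4. The ratio was thus lower in all 4 MIDY libraries than in all 5 WT libraries, 5.79 ± 0.44 (SD, n = 4) against 11.6 ± 1.86 (SD, n = 5). Both genes share their low and high libraries within a group: MIDY replicate 1 was lowest and MIDY replicate 4 highest for each, and of the WT libraries replicates 1 and 3 were the 2 highest and replicates 2 and 4 the 2 lowest for each. After the group means were subtracted, Pearson's r between the log2 CPM of PFKFB1 and PFKFB3 was 0.80 over the 9 libraries, given as a description without a test. Among 11511 named genes with a mean of at least 1 CPM, the 99th percentile of such an r was 0.82 with PFKFB1 and 0.79 with PFKFB3. The ratio of PFKFB2 to PFKFB1 overlapped between the groups, at 4.92 to 10.7 reads per 100 in WT and 7.09 to 9.87 in MIDY. The ratio of PFKFB4 to PFKFB1 did too, at 0.870 to 4.29 in WT and 1.69 to 4.83 in MIDY. Transcript lengths were not used here, so levels of different PFKFB genes are not ranked against each other.

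**Figure D3:**
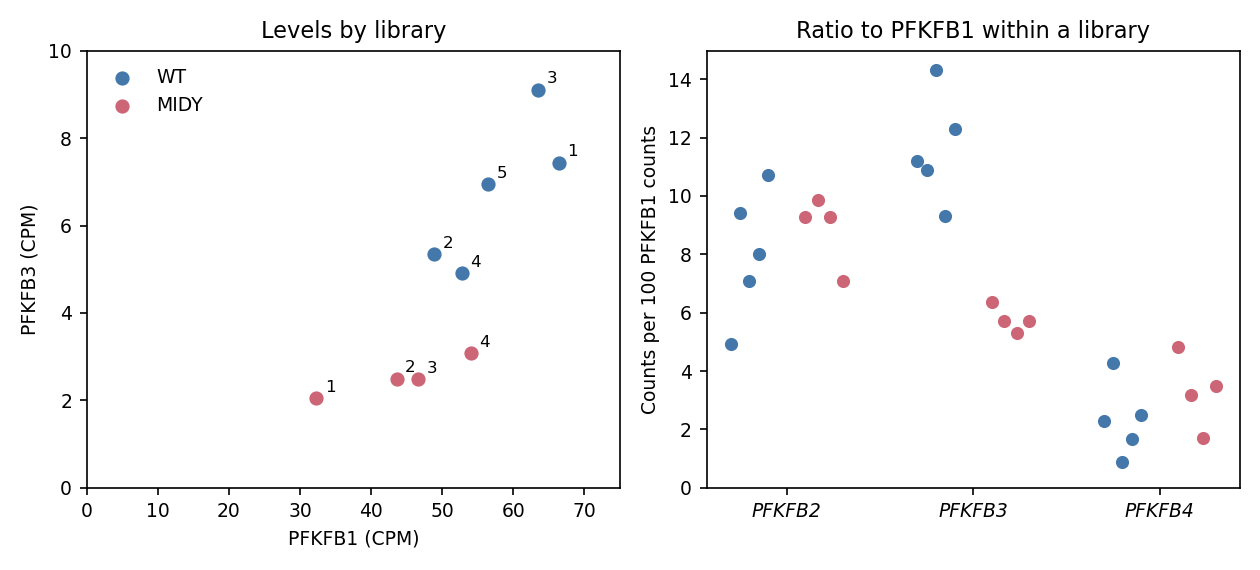
Left, PFKFB3 against PFKFB1 in TMM-scaled CPM, 1 point per library with its replicate number (WT blue, MIDY red). Right, reads of PFKFB2, PFKFB3 and PFKFB4 per 100 reads of PFKFB1 in the same library; for PFKFB3 the MIDY libraries lie at 5.31 to 6.37 and the WT libraries at 9.32 to 14.3, while the other ratios overlap.

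The genes on either side of PFKFB3 were not called. RBM17, a splicing factor gene 27314 bases away, had 12.7 ± 0.94 CPM in WT (SD, n = 5) and 12.3 ± 0.90 CPM in MIDY (SD, n = 4; edgeR adjusted p = 0.899), with a log2 fold change of -0.04 ± 0.11 (SE). PRKCQ, the protein kinase C theta gene 179786 bases to the other side, had a log2 fold change of -0.25 ± 0.41 (SE; edgeR adjusted p = 0.817). No other gene model in the RefSeq table overlaps PFKFB3 or PFKFB4. Beside PFKFB4, SHISA5 had a log2 fold change of -0.41 ± 0.21 (SE; edgeR adjusted p = 0.358) and UCN2 had 0 counts. PFKFB1 overlaps 264 bases of TRO, which had 11 counts in all and was not tested. Of its other neighbours, ITIH6 had 0 counts and was not tested. APEX2 was not called, with a log2 fold change of 0.10 ± 0.23 (SE, edgeR adjusted p = 0.885). Around PFKFB2, YOD1 (0.46 ± 0.18), C4BPB (-0.17 ± 0.10), C4BPA (-0.25 ± 0.13) and C9H1orf116 (-0.03 ± 0.30, log2 ± SE) were not called either (edgeR adjusted p = 0.224, 0.417, 0.363 and 0.974).

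Of the enzymes that fructose 2,6-bisphosphate acts on, FBP1, the fructose-1,6-bisphosphatase of liver, rose in MIDY and the phosphofructokinase genes were not called. FBP1 had 222, 176, 262, 274 and 241 CPM in WT replicates 1 to 5 and 559, 469, 409 and 315 CPM in MIDY replicates 1 to 4, without overlap (log2 fold change 0.90 ± 0.17, SE; edgeR adjusted p = 0.0273). Among MIDY libraries, replicate 1 had the highest FBP1 and the lowest PFKFB1 and PFKFB3, and replicate 4 the lowest FBP1 and the highest PFKFB1 and PFKFB3. The WT libraries did not follow this order: replicate 2 had both the lowest FBP1 and the lowest PFKFB1, and replicate 3, with the highest PFKFB3, was next to the highest in FBP1. FBP1 lost its call without MIDY replicate 1, 2 or 3 or WT replicate 2, 3 or 5 (edgeR adjusted p from 0.0553 to 0.0860). PFKL, the liver phosphofructokinase, had 16.1 ± 1.77 CPM in WT (SD, n = 5) and 18.7 ± 6.32 CPM in MIDY (SD, n = 4), where MIDY replicate 1 held 28.1 CPM and the other MIDY libraries 14.4 to 16.4 CPM. The log2 fold change was 0.21 ± 0.18 for PFKL (-0.05 without that library), -0.21 ± 0.25 for the muscle form PFKM and -0.23 ± 0.22 for the platelet form PFKP (SE; edgeR adjusted p = 0.619, 0.721 and 0.653). FBP2, the muscle form of the bisphosphatase, had 12 counts in all and was not tested.

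TIGAR, a separate protein that also removes phosphate from fructose 2,6-bisphosphate, was not called: it had 7.75 ± 1.06 CPM in WT (SD, n = 5) and 8.91 ± 0.77 CPM in MIDY (SD, n = 4; edgeR adjusted p = 0.524). It belongs with the phosphatase domain of the PFKFB enzymes to the histidine phosphatase fold. Of 4 tested genes of this fold outside the family, edgeR, DESeq2 and limma voom called 0, and with edgeR 0 had an unadjusted p below 0.05. Of all genes tested edgeR called 1.17% in either direction. At an unadjusted p below 0.05, 8.15% were higher and 8.0% lower, so 0 of 4 is near these shares. The other 3 were PGAM1 (-0.01 ± 0.12), a glycolytic mutase, BPGM (-0.21 ± 0.17), which makes bisphosphoglycerate in red cells, and the mitochondrial phosphatase PGAM5 (-0.04 ± 0.19, log2 ± SE; edgeR adjusted p = 0.986, 0.581 and 0.953). PGAM2, the muscle mutase, had 7 counts and was not tested.

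In the rest of glycolysis, 2 of 15 tested genes rose and 0 fell in the edgeR fit, where 0.816% and 0.355% of all genes tested did. At an unadjusted p below 0.05, 3 were higher and 1 lower, where 8.15% and 8.0% of all genes tested were. DESeq2 and limma voom each called 2 higher and 0 lower. Of all 14100 genes DESeq2 called 358 higher and 284 lower, and limma voom 153 higher and 81 lower. The 2 genes encode subunits of lactate dehydrogenase, which interconverts pyruvate and lactate. LDHB rose, with 34.2 ± 7.25 CPM in WT (SD, n = 5) and 86.9 ± 29.2 CPM in MIDY (SD, n = 4), a log2 fold change of 1.34 ± 0.24 (SE; edgeR adjusted p = 0.0273). LDHA rose as well, and its log2 fold change was 0.75 ± 0.14 (SE; edgeR adjusted p = 0.0273). LDHB lost its call without MIDY replicate 1, 2 or 3 or WT replicate 2, 3 or 5 (edgeR adjusted p from 0.0517 to 0.0846), and LDHA without MIDY replicate 2 or 3 or WT replicate 3 or 5 (0.0604 to 0.0892). GPI, which interconverts glucose and fructose phosphates, was not called (0.50 ± 0.15 log2, SE; edgeR adjusted p = 0.123), although its groups did not overlap. HK1, a hexokinase found in most tissues, had a log2 fold change of -0.41 ± 0.14 (SE) and overlapping groups (edgeR adjusted p = 0.178). The median log2 fold change was 0.15 over the 15 genes.

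In the gluconeogenesis list, which excludes FBP1, 2 of 10 tested genes rose and 0 fell, where 0.816% and 0.355% of all genes tested did. At an unadjusted p below 0.05, 4 were higher and 1 lower, where 8.15% and 8.0% of all genes tested were. DESeq2 called 3 higher and 0 lower, where it called 358 and 284 of all 14100 genes. Limma voom called 2 higher and 0 lower, where it called 153 and 81 of all 14100 genes. The 2 genes were the aminotransferases GOT1 (1.26 ± 0.15) and GPT2 (1.74 ± 0.23, log2 ± SE; edgeR adjusted p = 0.00346 and 0.00696), and both were called whichever of the 9 libraries was left out. SLC37A4, which carries glucose 6-phosphate into the endoplasmic reticulum, did not overlap between the groups but was not called (0.73 ± 0.19 log2, SE; edgeR adjusted p = 0.0945); it was called without WT replicate 1. G6PC3, the widely expressed glucose 6-phosphatase, was not called (-0.50 ± 0.20 log2, SE; edgeR adjusted p = 0.248). The median log2 fold change of this list was 0.39.

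**Figure D4:**
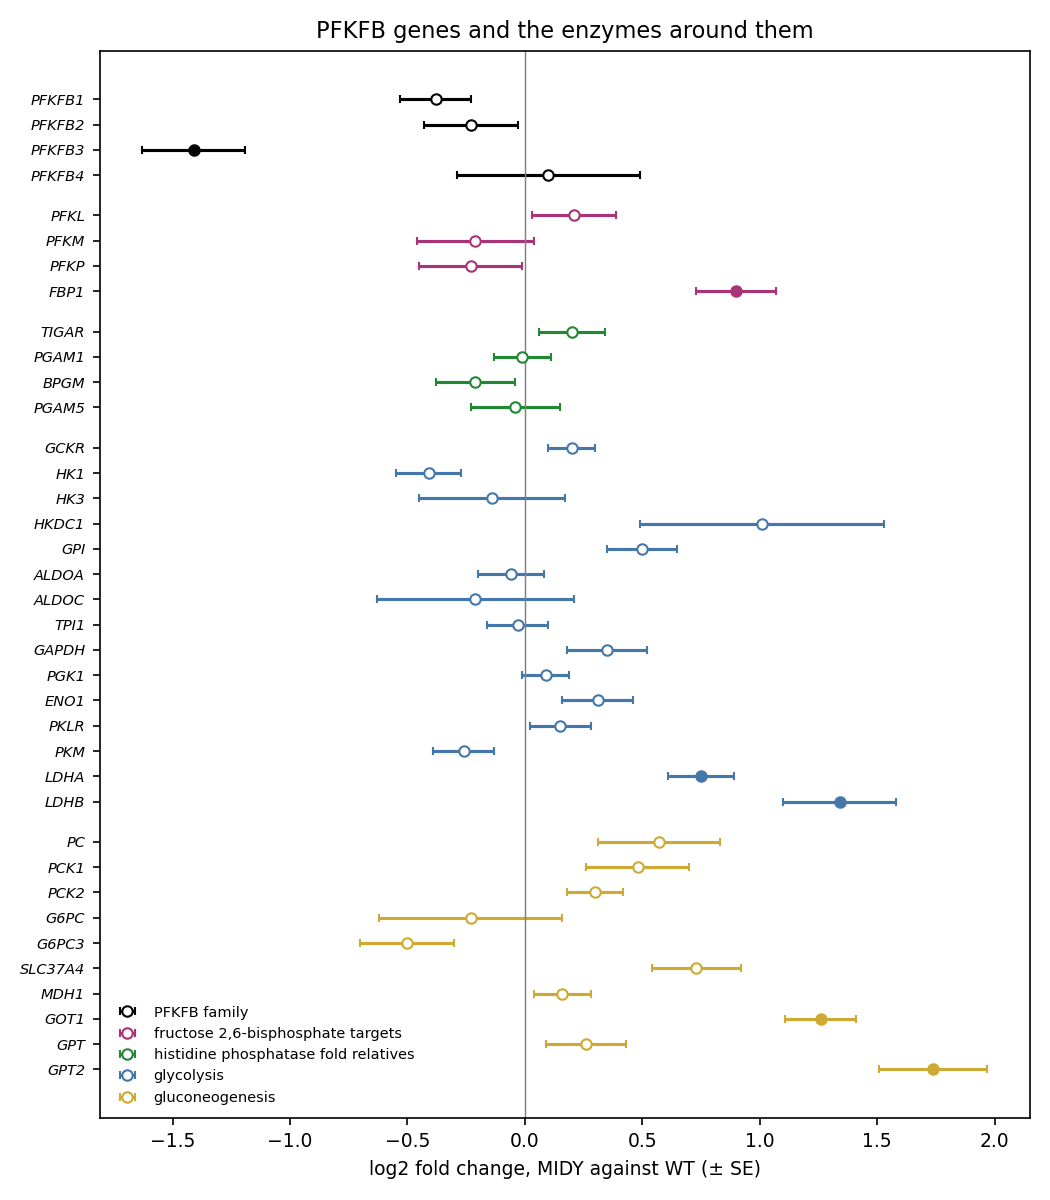
Log2 fold change of MIDY against WT (horizontal axis, ± SE from the edgeR fit) for the tested PFKFB genes and the enzymes around them, coloured by list; filled points passed an edgeR adjusted p of 0.05. PFKFB3 (-1.41) is the only filled point left of 0, and FBP1, LDHA, LDHB, GOT1 and GPT2 are the filled points right of 0; for the 4 PFKFB genes the fill is a description and not a test.

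Enzymes known to phosphorylate, dephosphorylate or degrade PFKFB proteins showed 0 calls among 22 tested genes in the edgeR fit. At an unadjusted p below 0.05, 4 were higher and 2 lower, where 8.15% and 8.0% of all genes tested were. DESeq2 called 1 higher and limma voom 0. Over all genes tested, edgeR called 1.17% in either direction. Of the same 14100 genes DESeq2 called 358 higher and 284 lower, and limma voom 153 higher and 81 lower. The 4 with the smallest p were the protein kinase C gene PRKCA (0.69 ± 0.20), the insulin-signalling kinase PDPK1 (0.26 ± 0.09), PPP2CA (0.30 ± 0.12), a catalytic subunit of protein phosphatase 2A, and PRKAA2 (0.24 ± 0.09, log2 ± SE), a catalytic subunit of the AMP-activated kinase, with edgeR adjusted p = 0.121, 0.204, 0.238 and 0.242. The 2 lower were the kinase genes SGK1 (-1.08 ± 0.42) and RPS6KA1 (-0.42 ± 0.17, log2 ± SE), with edgeR adjusted p = 0.251 and 0.263. Transcript levels say nothing of how far any PFKFB protein was phosphorylated.

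Of 20 tested transcription factor genes with known ties to PFKFB genes, edgeR called 0. At an unadjusted p below 0.05, 1 was higher and 2 were lower, where 8.15% and 8.0% of all genes tested were. DESeq2 called 1 higher, where it called 358 of all 14100 genes higher, and limma voom called 0. PPARA, the fatty acid receptor (0.74 ± 0.18), had the smallest p, followed by the lipogenic factor SREBF1 (-0.69 ± 0.26), the clock repressor NR1D1 (-0.67 ± 0.27) and the hypoxia factor EPAS1 (-0.20 ± 0.10, log2 ± SE; edgeR adjusted p = 0.0756, 0.232, 0.254 and 0.375). SREBF1 was called lower without WT replicate 2. ARNTL (0.70 ± 0.41 log2 ± SE, edgeR adjusted p = 0.44 with all libraries) was called higher without WT replicate 1, which held 7.02 CPM of it.

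PFKFB3 and PFKFB4 are often counted among the genes of the hypoxia response. Of 16 tested genes of a hypoxia list that holds neither, 3 rose and 0 fell with edgeR, 7 were higher and 1 lower at an unadjusted p below 0.05, DESeq2 called 4 higher and 1 lower, and limma voom 3 higher and 0 lower. The mitophagy receptor gene BNIP3 (0.51 ± 0.09), the MYC antagonist MXI1 (0.79 ± 0.17) and LDHA rose, the first 2 at edgeR adjusted p = 0.0201 and 0.0434 (log2 ± SE). BNIP3 lost its call without MIDY replicate 2 or 3 or WT replicate 2 or 5 (edgeR adjusted p from 0.0516 to 0.0694). MXI1 lost it without MIDY replicate 2, 3 or 4 or WT replicate 2, 3, 4 or 5 (0.0569 to 0.113). NDRG1, a stress-induced gene, was not called (-0.64 ± 0.17 log2, SE; edgeR adjusted p = 0.0928) although its groups did not overlap, and was the 1 that DESeq2 called lower. Over all 7 lists, 7 of 90 tested genes rose and 0 fell with edgeR, 19 were higher and 7 lower at an unadjusted p below 0.05, DESeq2 called 11 higher and 1 lower, and limma voom 7 higher and 0 lower. Of all genes tested edgeR called 0.816% higher and 0.355% lower. Of these 14100 genes DESeq2 called 358 higher and 284 lower, and limma voom 153 higher and 81 lower. At the unadjusted threshold 8.15% of all genes tested were higher and 8.0% lower, so 7 of 90 lower is near the share of all genes. The lists were chosen with earlier results of these data known, so the other differences from these shares were not tested. Leaving out 1 library turned the 7 genes called higher with edgeR into 2 (MIDY replicate 2, MIDY replicate 3 or WT replicate 5) or 3 (WT replicate 2 or 3).

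PFKFB3 is made in many cell types, and in bulk liver fewer cells of a type and less RNA per cell cannot be told apart. The summed level of 9 endothelial markers overlapped between the groups, at 882 to 984 CPM in MIDY and 844 to 1021 CPM in WT, but its members went different ways. Of the 9 markers 6 were fitted below 0, and edgeR, DESeq2 and limma voom called 0. At an unadjusted p below 0.05, 1 was higher and 2 were lower, where 8.15% and 8.0% of all genes tested were. The adhesion molecule PECAM1 (-0.24 ± 0.10, without overlap) and the angiopoietin receptor TEK (-0.24 ± 0.10) were the 2 lower, and the scavenger receptor STAB2 (0.38 ± 0.12, log2 ± SE) the 1 higher (edgeR adjusted p = 0.271, 0.258 and 0.144). Over the 9 libraries Pearson's r with PFKFB3 was 0.88 for PECAM1 and 0.82 for TEK, which includes the difference between the groups. It was 0.69 for CDH5, 0.53 for CLEC4G, 0.23 for LYVE1, 0.20 for KDR, 0.08 for VWF, -0.16 for STAB1 and -0.71 for STAB2. The sum of 9 Kupffer cell and macrophage markers overlapped as well (609 to 837 CPM in MIDY and 679 to 909 CPM in WT), and CD5L alone held a mean of 421 CPM of it in WT. Of these 9 markers 7 were fitted below 0; edgeR and limma voom called 0 and DESeq2 called 1 higher, MARCO, with 1 higher and 2 lower at an unadjusted p below 0.05. CD163 was lower without overlap (-0.21 ± 0.08 log2 ± SE, edgeR adjusted p = 0.239), with r = 0.89 with PFKFB3. MARCO was higher without overlap (0.98 ± 0.29 log2 ± SE, edgeR adjusted p = 0.138), with r = -0.59. The r was -0.06 for CD5L and lay between 0.37 and 0.61 for CD68, CSF1R, VSIG4, MSR1, ADGRE1 and C1QA. For 8 neutrophil markers the sum was 13.1 to 14.8 CPM in MIDY and 13.1 to 24.1 CPM in WT, and all 5 tested were fitted below 0. CXCR2, a chemokine receptor, was lower without overlap (-0.76 ± 0.19 log2, SE; edgeR adjusted p = 0.0796) and was called by DESeq2, while edgeR and limma voom called 0 of the 5.

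The sums of T and NK cell markers were lower in every MIDY library than in any WT library. Over 9 markers they were 34.9 to 41.9 CPM against 43.5 to 62.8 CPM. CD247 and CD4 held means of 20.4 and 12.9 CPM of a sum of 52.1 CPM in WT. In MIDY they held 14.6 and 11.7 CPM of 37.5 CPM, and the groups of both overlapped. CD2 was the 1 of 8 tested that was called. CD2 was called with edgeR at an adjusted p = 0.0377 and lost the call when any MIDY library or WT replicate 2, 3 or 4 was left out (0.0508 to 0.109). All 8 tested were fitted below 0, and DESeq2 called 1, CD2, and limma voom 0. At an unadjusted p below 0.05, 3 of the 8 were lower. Over all genes tested, edgeR called 0.355% lower, and 8.0% were lower at an unadjusted p below 0.05. Of the same 14100 genes DESeq2 called 284 lower and limma voom 81. Sums of 6 B cell markers were lower too, at 14.7 to 21.9 CPM against 22.1 to 52.4 CPM. Of 3 tested markers edgeR called 0, 2 were lower at an unadjusted p below 0.05, and DESeq2 and limma voom called 0. JCHAIN alone held a mean of 27.7 CPM of a sum of 32.2 CPM in WT and 15.3 CPM of 18.2 CPM in MIDY. Its own groups overlapped, at 12.2 to 18.9 CPM in MIDY and 17.2 to 48.1 CPM in WT. Over 8 stellate cell and fibroblast markers the sum was 274 to 393 CPM in MIDY and 366 to 615 CPM in WT, and COL1A2 was the 1 of 8 called, lower in MIDY (edgeR adjusted p = 0.0434). It lost the call when MIDY replicate 1, 2 or 3 or WT replicate 2, 3, 4 or 5 was left out (0.0764 to 0.106). DESeq2 called 3 of the 8 lower (ACTA2, COL1A1 and COL1A2) and limma voom 2 (COL1A1 and COL1A2), and 4 were lower at an unadjusted p below 0.05. Erythroid markers, 4 in all, were uneven within WT, at 1492, 545, 1058, 72.7 and 69.1 CPM in replicates 1 to 5, and the 2 WT libraries with the most, replicates 1 and 3, were also those with the most PFKFB3. In MIDY they held 162 to 536 CPM, with the most in replicate 1, where PFKFB3 was lowest. Of 4 muscle markers MYH7 had 0 counts and the sum stayed at or below 0.35 CPM in every library. The sum of 5 biliary markers overlapped between the groups (20.6 to 28.9 CPM in MIDY and 18.5 to 29.9 CPM in WT), as did that of 4 adipocyte markers (4.25 to 8.86 and 5.35 to 6.87 CPM) and of 5 pancreas markers (0.902 to 4.2 and 0.345 to 2.43 CPM), of which PNLIP and GCG had 0 counts. The biliary EPCAM (0.69 ± 0.26) and the adipocyte PLIN1 (0.90 ± 0.25, log2 ± SE) were higher without overlap but not called (edgeR adjusted p = 0.224 and 0.108). The other 4 biliary markers were fitted below 0, and CIDEC, the other adipocyte marker tested, at -0.01 ± 0.22. Over the 9 libraries r with PFKFB3 was -0.87 for EPCAM, -0.86 for PLIN1 and -0.87 for the hepatocyte marker CPS1. It lay between -0.78 and 0.58 for the other hepatocyte markers. The part of these cell types in the PFKFB3 difference was not tested.

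The genes most like each PFKFB gene over the 9 libraries were taken from 11511 named genes with a mean of at least 1 CPM, by Pearson correlation of log2 CPM, as a description without a test. Those most like PFKFB3 were FGD5 (r = 0.958), an exchange factor known from endothelial cells, the spindle gene SKA2 (r = 0.954) and RASA4B (r = 0.941), a Ras regulator. Because r over the 9 libraries includes the group difference of PFKFB3, it favours genes that differ in the same way. The groups of FGD5, SKA2 and RASA4B did not overlap either. FGD5 was called lower, with 14.6 to 17.0 CPM in WT and 9.98 to 12.2 CPM in MIDY (edgeR adjusted p = 0.0479). It lost the call when MIDY replicate 1, 2 or 3 or any WT library was left out (0.0662 to 0.127). After the group means were subtracted the 3 most alike genes were others, GPANK1 (r = 0.971), SSC5D (r = 0.951) and TOR4A (r = 0.933). For PFKFB1 they were FEZ2 (r = 0.953), PPP1R9A (r = 0.945) and ZNF660 (r = 0.940), and within groups NUMA1 (r = 0.976), FAM193A (r = 0.970) and IVD (r = 0.962), the isovaleryl-CoA dehydrogenase of leucine breakdown. For PFKFB2 they were TBC1D19 (r = 0.946), SWAP70 (r = 0.938) and PKNOX2 (r = 0.929), and within groups RNF4 (r = 0.989), CDK2 (r = 0.948) and again TBC1D19 (r = 0.948). For PFKFB4 they were ZNF576 (r = 0.961), OXSR1 (r = 0.884) and TMEM170B (r = 0.876), and within groups PITPNC1 and LYZ (r = 0.963 for both) and again ZNF576 (r = 0.961). Over the 9 libraries, the 99th percentile of r among all candidates was 0.84 for PFKFB3, 0.79 for PFKFB1, 0.75 for PFKFB2 and 0.73 for PFKFB4. Within groups it was 0.79 for PFKFB3, 0.82 for PFKFB1, 0.77 for PFKFB2 and 0.78 for PFKFB4.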

How the data were processed

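The table that the authors deposited holds raw counts by gene symbol for 9 liver libraries (4 MIDY, 5 WT), 1 column each, with 0 unused columns and 0 entries that name no gene. STAR, HTSeq, DESeq2 and the build Sscrofa11.1 are named in the submitters' processing notes. The sources used here do not give versions, annotation release or strand setting. Groups follow the genotype label, and replicates are numbered in accession order. No 2 libraries of a group agreed within sampling noise (chi-square per degree of freedom at least 14.02).

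Counts were filtered with filterByExpr (14100 genes with 99.9% of the counts), TMM-scaled and fitted with edgeR 4.0.16 (robust quasi-likelihood, R 4.3.3). Two-sided p-values received the Benjamini-Hochberg adjustment over all genes tested, and genes were called at an adjusted p below 0.05. CPM are counts per 1000000 TMM-scaled counts, and SE is the log2 fold change over the square root of F. Correlations used log2 CPM with a prior count of 2. In simulated counts of this comparison over 13872 genes the fit called 62 of 100 genes changed by 1 on the log2 scale and 86 of 100 changed by 2, with 10 false calls. Positions come from RefSeq on Sscrofa11.1, where all 29837 symbols matched; no sequences were used here.

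The members and lists were chosen with earlier results of these data known. From the glycolysis list 2 genes are not reported here, and they enter no count of that list. Named are the PFKFB genes, their neighbours, all measured genes of the first 2 lists and up to 4 genes with the smallest p of the other lists. SGK1 and RPS6KA1 of the kinase list and ARNTL of the transcription factor list are named too. So are the 3 most alike genes of each member over all libraries and within groups. Of the markers, some of those that moved with a result or were at 0 are named, and all endothelial and macrophage markers. Alternatives were RLE or total-count scaling, the 10 most abundant genes taken out, no filter, a stricter filter (1 CPM in 4 libraries), DESeq2 1.42.0, limma 3.58.1 voom with sample weights, 1 surrogate variable (sva 3.50.0), and leaving out each library or WT replicates 1 and 2 together.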

Additional observations from a re-analysis of the deposited data

Results flagged for a closer look

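Of 168 sets of group values examined for a single library far from the rest, 8 held one by Dixon's criterion, where chance alone gives about 1 in 20. None was a PFKFB gene or a ratio to PFKFB1. In MIDY replicate 1 PFKL stood at 28.1 CPM against 16.4 CPM in the next MIDY library, BPGM at 9.42 CPM against 6.24 CPM, CD247 at 18.3 CPM against 13.5 CPM, and TOR4A, low, at 1.06 CPM against 1.42 CPM. In MIDY replicate 3 NR1D1 stood at 3.21 CPM against 7.39 CPM in the next. In WT replicate 2 NDRG1 stood at 9.34 CPM against 6.83 CPM in the next, and in WT replicate 1 YOD1, which overlaps PFKFB2, at 9.59 CPM against 6.24 CPM. In WT replicate 5 MS4A1 stood at 2.09 CPM against 1.53 CPM.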

How the results depend on the processing

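The fold changes of the 4 PFKFB genes moved by less than 1 SD between libraries in every alternative that was run. Their mean CPM, recomputed with RLE and total-count scaling only, also moved by less than 1 SD. The number of genes called higher over the whole table, 115, became 358 with DESeq2, 42 without WT replicates 1 and 2, and 34 to 152 when single libraries were left out. The number called lower, 50, became 284 with DESeq2, 81 with limma voom, 85 with 1 surrogate variable, 24 without WT replicates 1 and 2, and 4 to 107 when single libraries were left out. The 7 pathway genes called higher became 11 with DESeq2, 3 without WT replicates 1 and 2, and 2 to 9 when single libraries were left out. The 0 called lower became 1 with DESeq2 (NDRG1) and 0 to 1 when single libraries were left out. Levels per transcript length were not run, since the reference used here gives no transcript lengths. No paired analysis was possible because the labels give no replicate numbers shared by the groups. PFKFB4 had 8 to 42 reads per library, and counting error is one part of its spread.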
